A study of Mus musculus with 8 samples.

Results

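The Wnt and beta-catenin pathway was followed through 45 genes, chosen by symbol for their known place in the pathway, of the 24420 genes counted in all 8 libraries of prefrontal cortex RNA. The choice was made with earlier results of these data known. The 45 genes comprise 6 Wnt ligands, 2 genes of ligand release, 3 secreted modulators, 11 receptors and co-receptors, 2 ligases of receptor turnover, 3 Dishevelled genes with Nkd1, 8 genes of the beta-catenin destruction complex, 3 catenins or catenin partners, and 6 nuclear factors. All 45 were present in the count tables and all 45 passed the filter on low counts, with between 11 and 11429 reads per library. The mice were male and 5 to 6 weeks old per the sample labels, whereas the series design gives 5 to 8 weeks. Wild-type littermates gave 3 libraries. Heterozygous Shank3+/ΔC mice, whose mutant allele lacks the C-terminal part of Shank3 encoded in exon 21, gave 3 libraries after saline and 2 after romidepsin, an inhibitor of class I histone deacetylases. Romidepsin was injected intraperitoneally at 0.25 mg/kg on each of 3 days, and the cortex was collected 1 day later. Saline was given on the same schedule of 3 daily doses, also with collection 1 day after the last. No treatment is given for the wild-type mice, so genotype and saline injection cannot be told apart. Romidepsin against wild type differs in genotype and drug together, and possibly in injection. Only romidepsin against saline compares mice of the same genotype. The labels do not say whether libraries of a group came from separate animals or from pools, so the p-values given here reflect library-to-library spread, which may be technical.

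In canonical Wnt signaling, a secreted Wnt protein bound to a Frizzled receptor and to the co-receptor LRP5 or LRP6 recruits Dishevelled and stops a cytoplasmic complex of Axin, APC, GSK3 and casein kinase 1 from marking beta-catenin for destruction. Stabilized beta-catenin enters the nucleus and acts with TCF/LEF factors on target genes, several of which feed back on the pathway. In the brain, beta-catenin also links cadherins to the cytoskeleton at synapses, and Wnt7a and Wnt7b act on forebrain blood vessels. The pathway is largely regulated through protein stability and location, which RNA counts do not measure. The groups were compared to ask whether the RNA of these genes differed in Shank3-deficient cortex, and whether it differed again after the deacetylase inhibitor.

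Between 7783538 and 15156318 reads were counted on genes per library. Shank3 itself had 299, 308 and 348 counts scaled to a common library size (CPM) in wild type, 317, 252 and 301 after saline, and 315 and 313 after romidepsin. These groups overlapped, and because reads were counted over the whole gene the value does not check the deletion of exon 21. The labels name neurons as the cell type and cortical slices as the tissue. The summed level of 10 astrocyte markers was nevertheless 5664 to 7447 CPM and that of 10 excitatory neuron markers 7552 to 8456 CPM, so the libraries hold RNA of whole tissue. Fewer cells of a type and less RNA per cell cannot be told apart in such libraries. Markers of the olfactory bulb, a neighboring region, summed to 18.2 to 46.0 CPM in wild type, 28.8 to 67.8 after saline, and 24.0 and 25.3 after romidepsin, and their part in the pathway values was not tested. The third wild-type library stood apart for the pathway genes, being the highest of its group in 28 of 45 (62.22%, against 39.82% of all 14809 tested genes).

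Per kilobase of exon, the pathway RNA in wild-type cortex was led by Dkk3, a divergent member of the Dickkopf family of secreted proteins, at 172 RPKM (CPM per kilobase of exon) ± 46.8 (SD, n = 3). Ctnnb1, which encodes beta-catenin, came next at 105 ± 3.58 RPKM. Of the destruction complex, the kinase gene Gsk3a reached 81.0 ± 1.74 RPKM, the scaffold gene Apc 43.9, and Gsk3b 23.9, while the inducible scaffold Axin2 was lowest of the 8 at 5.39. Dvl1 was the leading Dishevelled gene at 25.0 RPKM. Porcn, the enzyme that attaches the lipid Wnt ligands need, was at 18.5 RPKM, and Wls, which carries them to the cell surface, at 5.04. Wnt7b led the ligands at 10.4 RPKM and Wnt5a was last at 1.00. Fzd3 led the receptors at 10.6 RPKM and Fzd5 was last at 0.288. The DNA-binding partners of beta-catenin were among the rarest members: Tcf7 at 1.139, Tcf7l1 at 0.917, Tcf7l2 at 0.551 and Lef1 at 0.433 RPKM. Their coactivator Bcl9 stood higher, at 6.76 RPKM. These levels use union exon lengths of the GENCODE M21 annotation, which may differ from the transcripts used in cortex.

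**Figure D1:**
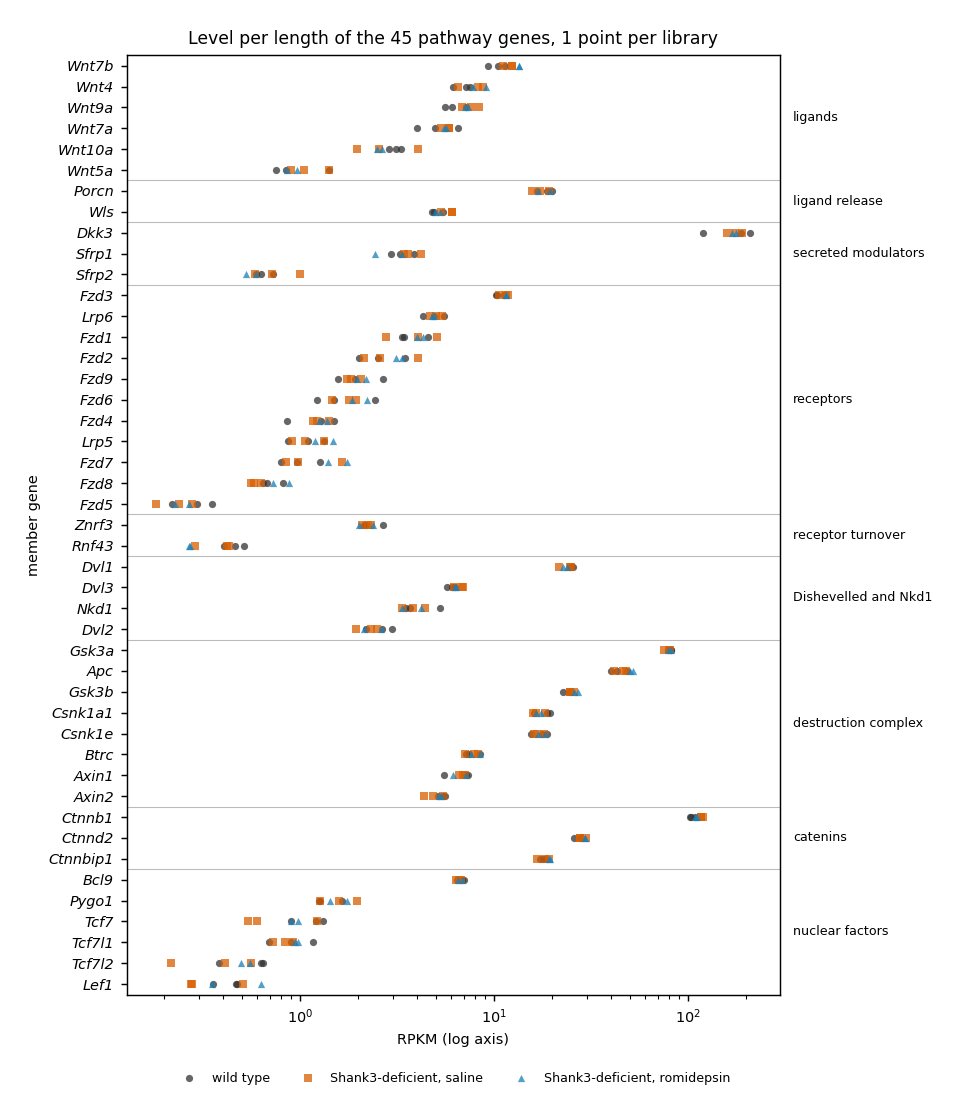
Level of each of the 45 pathway genes in RPKM (log axis), grouped by role, with 1 point per library for wild type, saline and romidepsin. Dkk3, Ctnnb1 and Gsk3a lie to the right and Fzd5, Lef1 and Rnf43 to the left.

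Sequences before a start site of 4 members are shown because Ctnnb1, Wls and Wnt9a had the smallest p-values between saline and wild type, and because Axin2 is a standard readout of beta-catenin activity. Each is the 250 bases before a transcription start in RefSeq (build GRCm38.p6, plus strand, 5′ to 3′), and capitals mark the GC box GGGCGG or its reverse complement CCGCCC, the letters bound by Sp-family factors. For Ctnnb1 the RefSeq table holds 2 starts and the window of the more upstream is shown. It lies inside the GENCODE span of the gene, which begins farther upstream.
Ctnnb1, chr9:120933150-120933399: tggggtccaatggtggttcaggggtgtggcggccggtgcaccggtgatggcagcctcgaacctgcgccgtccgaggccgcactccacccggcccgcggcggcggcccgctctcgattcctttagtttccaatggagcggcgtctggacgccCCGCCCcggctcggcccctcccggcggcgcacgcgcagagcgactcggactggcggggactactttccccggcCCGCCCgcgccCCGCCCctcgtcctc
Wls, chr3:159839400-159839649: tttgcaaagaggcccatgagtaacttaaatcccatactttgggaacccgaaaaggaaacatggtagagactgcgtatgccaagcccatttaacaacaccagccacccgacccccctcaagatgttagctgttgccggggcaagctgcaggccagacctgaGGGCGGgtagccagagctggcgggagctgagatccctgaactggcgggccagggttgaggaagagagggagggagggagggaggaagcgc
Wnt9a, chr11:59306680-59306929: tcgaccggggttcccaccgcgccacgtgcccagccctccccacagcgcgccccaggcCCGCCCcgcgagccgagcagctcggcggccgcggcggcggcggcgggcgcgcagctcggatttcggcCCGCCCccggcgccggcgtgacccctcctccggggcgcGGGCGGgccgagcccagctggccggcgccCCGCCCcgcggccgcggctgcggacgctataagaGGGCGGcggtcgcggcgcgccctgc
Axin2, chr11:108920099-108920348: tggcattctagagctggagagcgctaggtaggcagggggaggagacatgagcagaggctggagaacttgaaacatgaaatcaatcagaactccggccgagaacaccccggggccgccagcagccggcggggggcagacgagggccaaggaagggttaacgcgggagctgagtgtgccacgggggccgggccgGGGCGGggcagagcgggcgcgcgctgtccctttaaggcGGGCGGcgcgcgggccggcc
The GC box occurred 3 times in the window of Ctnnb1, 1 time in that of Wls, 5 times in that of Wnt9a and 2 times in that of Axin2. It was present in 29 of the 39 windows found for 28 members (74.4%), against 32.7% of all 32851 windows of this length in the table. The TCF/LEF letters CTTTGAT or CTTTGAA, searched on both strands, were in none of the 4 windows shown. They were in 1 of the 39 member windows (2.56%, upstream of Gsk3a) and in 7.48% of all windows. A match is a description of the letters and not a bound site, and windows of 1 gene can overlap.

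None of the 45 pathway genes passed an adjusted p of 0.05 (edgeR's quasi-likelihood test, Benjamini-Hochberg over 14809 genes) between saline and wild type, where the background was 0.00675% of tested genes called (1 gene). None passed between romidepsin and saline, where 0% of tested genes were called, or between romidepsin and wild type, where 0.00675% were. DESeq2 and limma-voom also called 0 of 45 in each comparison. At an unadjusted p under 0.05, 4 members were higher and 0 lower after saline than in wild type (8.889% of members). The background was 8.39% of all tested genes, 3.59% higher and 4.8% lower. Between romidepsin and saline 0 members reached that level, against 3.26% of tested genes (1.73% higher and 1.53% lower). Between romidepsin and wild type 3 members were higher and 1 lower, against 3.24% of tested genes (1.46% higher and 1.78% lower). The 3 comparisons share groups of libraries, so these counts are not independent of one another. All 3 counts depended on single libraries. The count between romidepsin and saline became 2 when either wild-type replicate 3 or saline replicate 1 was dropped. It was 1 with wild-type replicate 2, saline replicate 2, saline replicate 3 or romidepsin replicate 1 left out. For the comparisons with wild type, without wild-type replicate 3 the 2 counts were 6 (saline) and 8 (romidepsin), and without wild-type replicate 2 they were 0 and 1. The saline count was 0 without saline replicate 2, 2 without wild-type replicate 1, and 1 without either romidepsin library. The romidepsin count was 1 without romidepsin replicate 1 and 2 without romidepsin replicate 2.

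How large a difference could have been missed is given by the intervals. Between saline and wild type, 32 of 45 members had a 95% interval that lay within 0.667-fold to 1.5-fold, and 41 lay within 2-fold in either direction. Between romidepsin and saline these numbers were 29 and 40, and between romidepsin and wild type 29 and 41. The members outside the 2-fold range were rare transcripts, among them Lef1 (0.811-fold to 2.20-fold between romidepsin and saline) and Tcf7 (0.451-fold to 1.18-fold between saline and wild type). The median log2 difference over the 45 members was 0.01 between saline and wild type, 0.05 between romidepsin and saline and 0.03 between romidepsin and wild type. Over all tested genes it was 0.0047, -0.0029 and 4.2e-05. Leaving out single libraries moved the first median between -0.03 (saline replicate 1 left out) and 0.10 (wild-type replicate 3 left out), and the second between 0.0018 (saline replicate 3 left out) and 0.05. The third ran from 0.02 to 0.07 (wild-type replicate 3 left out).

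**Figure D2:**
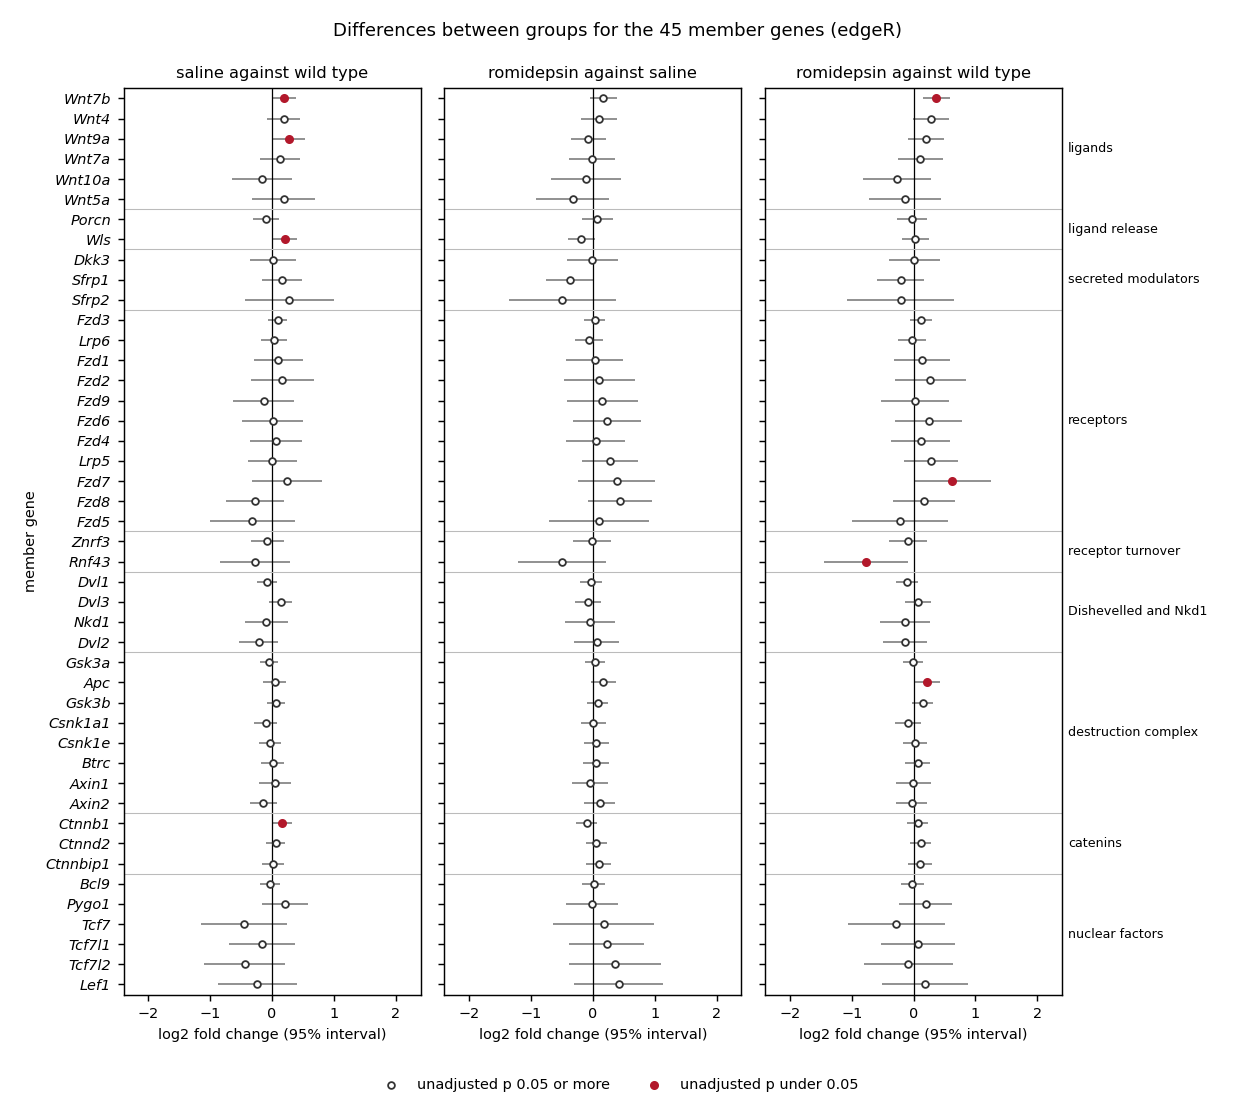
Log2 fold change (point) and 95% interval (line) of each of the 45 pathway genes in the 3 comparisons, grouped by role, from edgeR's quasi-likelihood fit. Most points lie near 0, and the longest lines belong to rare transcripts such as Lef1, Tcf7 and Fzd5.

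Ctnnb1 (chr9:120929216-120960507, GRCm38) had the most distinct levels between saline and wild type. It measured 540, 529 and 565 CPM in wild type, 606, 621 and 607 CPM after saline, and 567 and 574 CPM after romidepsin. All 3 saline libraries lay above all others, and both romidepsin libraries lay above all wild-type ones. Saline exceeded wild type by 1.12-fold (95% interval 1.01 to 1.25, log2 difference 0.17, SE 0.069), with an adjusted p of 0.533 in edgeR's quasi-likelihood test. Romidepsin stood at 0.933-fold of saline (0.831 to 1.05, adjusted p = 1.00 in edgeR) and at 1.05-fold of wild type (0.934 to 1.18, adjusted p = 0.999 in edgeR). No overlap between saline and wild type was seen in 12.6% of all tested genes. Exons of Ulk4 on the other strand cover 14.6% of the Ctnnb1 exons, and the strand setting of the counting is not given in the sources used here. Ctnnd2, which encodes the neuronal delta-catenin, measured 287, 268 and 291 CPM in wild type, 309, 287 and 285 after saline, and 305 in both romidepsin libraries. Ctnnbip1, whose product keeps beta-catenin from TCF factors, ranged from 46.5 to 53.9 CPM over the 8 libraries. Both romidepsin libraries were above the wild-type ones for Ctnnd2 and Ctnnbip1, by 1.08-fold in each, without passing the test.

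**Figure D3:**
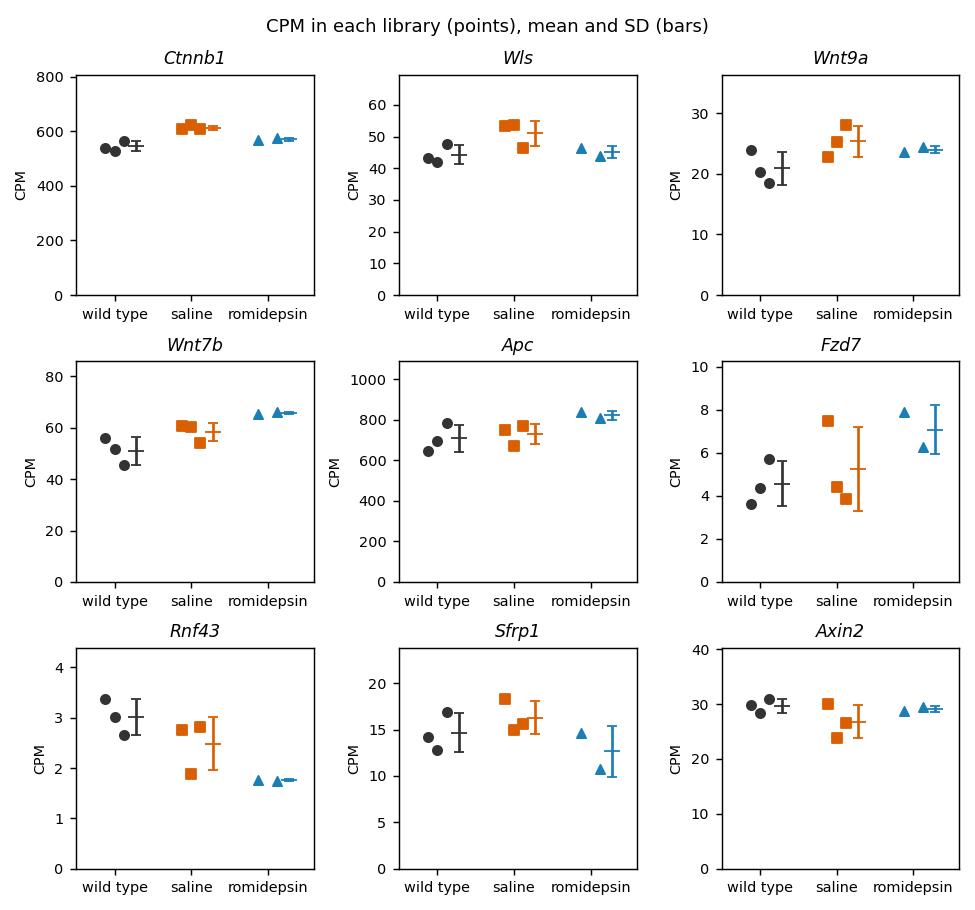
CPM in each library (points) for 9 pathway genes, with the mean and SD of each group (bars) on axes that start at 0. Ctnnb1 is highest in the 3 saline libraries, Wnt7b and Apc are highest in the 2 romidepsin libraries, and Axin2 overlaps across groups.

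Among the ligands, Wnt7b showed the smallest p-value of any member. It measured 56.0, 51.6 and 45.4 CPM in wild type, 60.7, 60.2 and 54.2 after saline, and 65.5 and 66.1 after romidepsin. The romidepsin libraries lay above all 6 others, while saline and wild type overlapped. Romidepsin exceeded wild type by 1.29-fold (1.11 to 1.498, unadjusted p = 0.00248), which ranked 17 of the 14809 genes and had an adjusted p of 0.999 in edgeR. The saline difference from wild type was 1.15-fold (1.00 to 1.31, adjusted p = 0.581 in edgeR). Against saline, romidepsin was at 1.12-fold (0.968 to 1.31, unadjusted p = 0.116 in edgeR). The log2 difference between romidepsin and wild type was 0.28 without the third wild-type library and 0.44 without the first.

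Wnt4, a ligand of both canonical and other Wnt signaling, stood in a similar order at 31.4, 30.2 and 25.6 CPM in wild type, 34.6, 36.8 and 27.3 after saline, and 38.2 and 32.6 after romidepsin. Only the romidepsin libraries were all above wild type, by 1.22-fold (0.996 to 1.49). Wnt9a (chr11:59306928-59333552) gave 23.8, 20.3 and 18.5 CPM in wild type, 22.8, 25.2 and 27.96 after saline, and 23.5 and 24.4 after romidepsin. The first wild-type library lay within the range of the other groups. Saline was 1.21-fold of wild type (1.01 to 1.44, adjusted p = 0.561 in edgeR). Wnt7a, the relative of Wnt7b, ranged from 12.7 to 20.7 CPM within wild type alone, a range that held all other libraries. Wnt10a ranged from 4.85 to 10 CPM within saline, and Wnt5a, mainly a ligand of beta-catenin-independent signaling, from 5.90 to 11.1 CPM over all libraries. Estimates were above 0 for 5 of the 6 ligands between saline and wild type, 2 of 6 between romidepsin and saline, and 4 of 6 between romidepsin and wild type. Over all tested genes 51.26%, 49.02% and 50.02% of estimates were above 0.

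Wls, needed for secretion of Wnt proteins (chr3:159839672-159938664), measured 43.3, 41.9 and 47.8 CPM in wild type, 53.3, 53.5 and 46.6 after saline, and 46.5 and 43.7 after romidepsin. The third saline library lay within the wild-type range, and the romidepsin libraries lay below all saline ones, the first by little. Saline was 1.16-fold of wild type (1.01 to 1.32, adjusted p = 0.550 in edgeR), and romidepsin 0.880-fold of saline (0.757 to 1.02, adjusted p = 1.00 in edgeR). Porcn lay between 46.8 and 59.9 CPM with all groups overlapping.

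Of the secreted modulators, Sfrp1, a soluble Frizzled-related protein that binds Wnt ligands, had the smallest p-value between romidepsin and saline. Its levels were 14.2, 12.8 and 16.9 CPM in wild type, 18.3, 14.98 and 15.7 after saline, and 14.6 and 10.7 after romidepsin. Both romidepsin libraries lay below the saline ones, the first by little. The ratio was 0.771-fold (0.594 to 1.00, unadjusted p = 0.0504, adjusted p = 1.00 in edgeR), and the log2 difference was -0.62 without the first romidepsin library and -0.17 without the second. Sfrp2 stayed between 1.13 and 2.16 CPM. Dkk3 measured 703, 626 and 401 CPM in wild type, 531, 635 and 585 after saline, and 564 and 596 after romidepsin. Its lowest and highest values were both in wild type.

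None of the 11 receptors passed the test in any comparison. The third wild-type library was the highest of its group for 11 of 11 receptors, against 39.82% of all tested genes. In the same library the summed astrocyte markers were 7447 CPM (5664 and 5751 in the other two), the microglial markers 720 CPM (518 and 560), and the endothelial and pericyte markers 459 CPM (371 and 399). It was also highest for meningeal fibroblast markers at 172 CPM (109 and 106), oligodendrocyte precursor markers at 483 (340 and 397) and olfactory bulb markers at 46.0 (23.8 and 18.2). The inhibitory neuron and choroid or ependymal sums were highest there too. Those of oligodendrocytes, excitatory neurons, thalamus and striatum were not. Whether any of these cell types or regions bears on the receptor levels was not tested. Fzd7 had the smallest receptor p-value between romidepsin and wild type, with 3.62, 4.37 and 5.72 CPM in wild type, 7.47, 4.40 and 3.85 after saline, and 7.88 and 6.28 after romidepsin. The saline libraries spanned almost the whole range of the other groups. Romidepsin was 1.55-fold of wild type (1.01 to 2.37, adjusted p = 0.999 in edgeR). Fzd8 gave 4.04, 3.84 and 4.86 CPM in wild type, 3.34, 3.77 and 3.46 after saline, and 5.22 and 4.32 after romidepsin. Every saline library was below every other, and the ratio of romidepsin to saline was 1.36-fold (0.947 to 1.95, adjusted p = 1.00 in edgeR).

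Fzd3, known for its part in axon guidance, was the most abundant receptor and among the most even, at 131 to 144 CPM in wild type, 136 to 151 after saline, and 147 and 148 after romidepsin. Lrp6 ranged from 59.0 to 75.7 CPM, with both extremes in wild type, and Lrp5 from 8.44 to 14.4 CPM. Receptor estimates were above 0 for 8 of 11 between saline and wild type, 10 of 11 between romidepsin and saline, and 9 of 11 between romidepsin and wild type, against 51.26%, 49.02% and 50.02% of all tested genes. The first count was 2 without the first saline library, 5 without the first wild-type library and 9 without the third wild-type library. The second count was 7 without the third saline library. The third count was 7 without the first wild-type library and 10 without the third.

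The first saline library was the highest of its group for 17 of 45 members (37.78%, against 30.87% of all tested genes). Among them were Fzd1, Fzd2, Fzd7, Wnt5a, Sfrp1 and Sfrp2, and these 6 were picked out after their values were seen. The summed level of 10 markers of meningeal fibroblasts, cells of the brain's covering, was 257 CPM in that library, 215 and 110 in the other saline libraries, 106 to 172 in wild type, and 192 and 130 after romidepsin. Of those markers, 10 of 10 had estimates above 0 between saline and wild type and 7 of 10 an unadjusted p under 0.05, with none at 0 in every library. Over all tested genes 51.26% of estimates were above 0 in this comparison, and 3.59% were higher at that p. The part of these markers in the Wnt gene levels was not tested.

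Rnf43 and Znrf3 encode ligases that remove Frizzled receptors from the surface. Rnf43 was at 3.37, 3.01 and 2.67 CPM in wild type, 2.75, 1.89 and 2.82 after saline, and 1.77 and 1.75 after romidepsin. The romidepsin libraries were the lowest of the 8. Romidepsin was 0.586-fold of wild type (0.365 to 0.943, unadjusted p = 0.0301, adjusted p = 0.999 in edgeR). Against saline, romidepsin was at 0.707-fold (0.433 to 1.15). Znrf3 was at 16.9, 17.3 and 21.2 CPM in wild type, 18.4, 16.5 and 17.6 after saline, and 18.7 and 15.95 after romidepsin. All its groups overlapped. None of the Dishevelled genes, which relay the receptor signal, passed the test. Dvl1 was at 123, 124 and 128 CPM in wild type, 124, 108 and 124 after saline, and 113 and 119 after romidepsin. Both romidepsin libraries lay below wild type, at 0.930-fold (0.821 to 1.06). Between saline and wild type Dvl2 was at 0.863-fold (0.694 to 1.08) and Dvl3 at 1.10-fold (0.970 to 1.25), with overlapping libraries in both.

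None of the 8 genes of the destruction complex passed the test. Gsk3a ranged from 219 to 238 CPM, and 28.3% of its exon bases overlap 9130221H12Rik on the other strand. Apc, the tumor suppressor scaffold, measured 648, 693 and 782 CPM in wild type, 749, 671 and 768 after saline, and 837 and 806 after romidepsin. The romidepsin libraries were above all others, at 1.16-fold of wild type (1.01 to 1.34, unadjusted p = 0.0419, adjusted p = 0.999 in edgeR). Gsk3b gave 245, 239 and 223 CPM in wild type, 241, 255 and 243 after saline, and 255 and 266 after romidepsin. Here too the romidepsin libraries lay above wild type, at 1.11-fold (0.985 to 1.24). Axin1, Btrc, Csnk1a1 and Csnk1e overlapped between all groups. In all, the groups did not overlap for 2 of 45 members between saline and wild type (Ctnnb1 higher, Fzd8 lower), against 12.6% of all tested genes, 6.26% higher and 6.36% lower. Between romidepsin and saline 4 members lay higher and 4 lower without overlap (17.78%), against 20.9% of tested genes, 10.8% higher and 10.2% lower. Between romidepsin and wild type 9 lay higher and 3 lower (26.67%), against 18.4% of tested genes, 9.34% higher and 9.08% lower.

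The TCF/LEF factors were rare and uneven. Tcf7l2 measured 3.37, 5.65 and 5.49 CPM in wild type, 4.91, 1.89 and 3.59 after saline, and 4.33 and 4.84 after romidepsin. Only saline replicate 2 lay outside the wild-type range. Tcf7 gave 2.36, 3.16 and 3.45 CPM in wild type, 3.21, 1.57 and 1.41 after saline, and 2.36 and 2.57 after romidepsin. Lef1, which brain endothelial cells express under Wnt signaling, gave 4.13, 4.14 and 3.14 CPM in wild type, 4.46, 2.41 and 2.44 after saline, and 5.52 and 3.09 after romidepsin. For Tcf7 and Lef1, saline replicates 2 and 3 were the lowest of the 8 libraries and replicate 1 was not. Within saline, the summed level of 16 endothelial and pericyte markers was highest in replicate 1, at 383 CPM against 287 and 331 in replicates 2 and 3. It was 371 to 459 in wild type and 421 and 361 after romidepsin. The other groups did not share this order for both genes. Wild-type replicate 3 had the highest sum of its group but the lowest Lef1 and the highest Tcf7. Romidepsin replicate 1 had the higher sum and Lef1 but the lower Tcf7. Of those markers 13 of 16 had estimates below 0 between saline and wild type, 8 of them at an unadjusted p under 0.05. Over all tested genes 7218 of 14809 were below 0, and 4.8% were lower at that p. The part of vessel RNA in the Lef1 and Tcf7 levels was not tested. Bcl9 stayed within 54.0 to 59.0 CPM and Pygo1, its partner, within 9.94 to 15.5 CPM.

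Transcripts that beta-catenin activity is known to induce as feedback were read as a group of 6: Axin2, Nkd1, Znrf3, Rnf43, Lef1 and Tcf7. None passed the test in any comparison. Axin2 measured 29.9, 28.3 and 30.9 CPM in wild type, 29.9, 23.9 and 26.6 after saline, and 28.7 and 29.4 after romidepsin. The first saline library lay within wild type and the other two below it. Saline was 0.907-fold of wild type (0.779 to 1.06, adjusted p = 0.750 in edgeR) and romidepsin 0.978-fold (0.824 to 1.16, adjusted p = 0.999 in edgeR). Nkd1, a Dishevelled antagonist, gave 16.9, 15.97 and 23.9 CPM in wild type, 19.98, 17.4 and 15.3 after saline, and 19.1 and 15.2 after romidepsin. Wild-type replicate 3 was the highest of all. The estimates between saline and wild type were below 0 for 6 of 6 feedback genes, as they were for 7218 of all 14809 tested genes. Their median log2 difference was -0.19, and 0 of 6 reached an unadjusted p under 0.05. Without the third wild-type library 4 of 6 feedback genes were below 0. A second list of Wnt target genes, given below, had 10 tested. Of these, 5 had estimates above 0 and 5 below between saline and wild type, with a median log2 difference of -0.0026. Between romidepsin and saline 3 of 6 feedback genes were below 0 (7549 of all tested genes), and between romidepsin and wild type 5 of 6 (7402 of all tested genes). The count between romidepsin and saline was 1 without the first saline or the second romidepsin library. The count between romidepsin and wild type was 3 without the third wild-type or the second romidepsin library. Ctnnb1 RNA was higher in each saline library than in each wild-type one, also without passing the adjusted test.

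**Figure D4:**
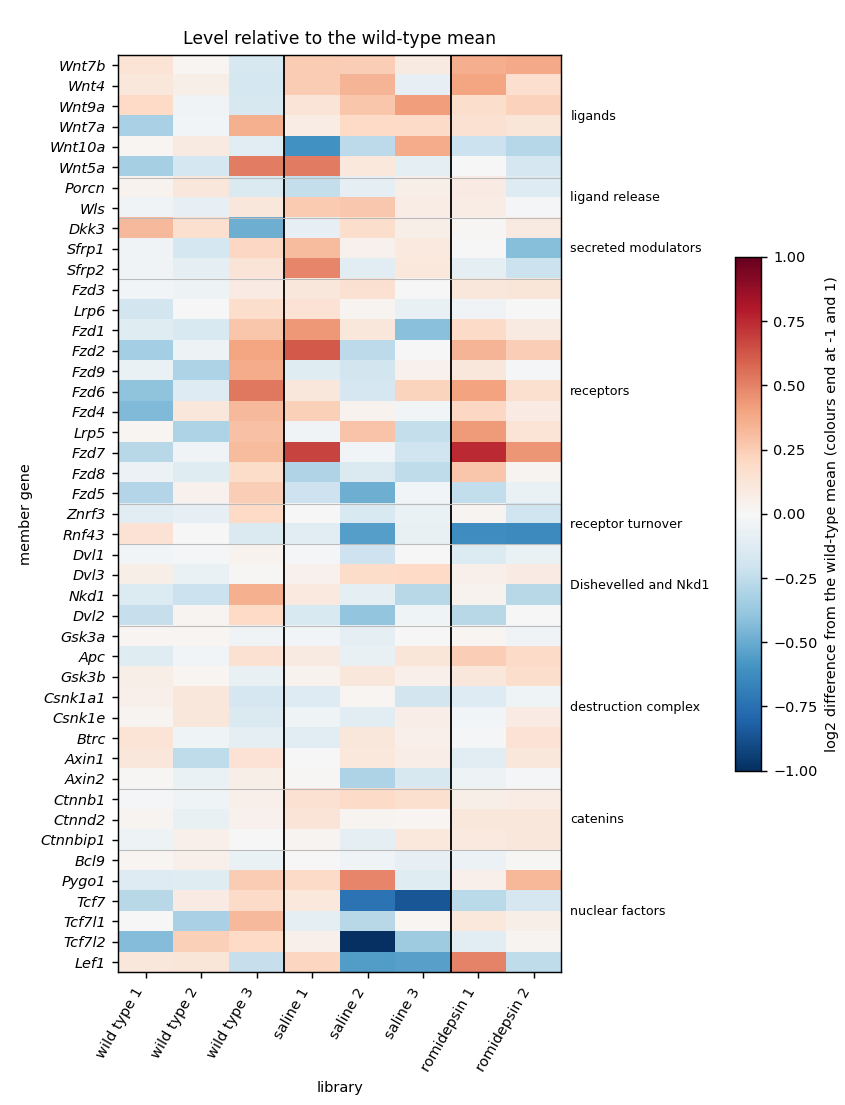
Log2 difference of each of the 45 pathway genes (rows, by role) from its wild-type mean in each of the 8 libraries (columns), with colours ending at -1 and 1. The third wild-type library is red across the receptors, and saline replicates 2 and 3 are blue for Lef1 and Tcf7.

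The wider pathway was read from 100 further genes, of which 85 passed the filter on low counts. None of the 85 passed an adjusted p of 0.05 in any comparison with edgeR, DESeq2 or limma-voom. At an unadjusted p under 0.05 in edgeR, 4 were higher and 4 lower between saline and wild type (9.412%, against 8.39% of all tested genes). Between romidepsin and saline 0 were higher and 2 lower (2.353%, against 3.26%), and between romidepsin and wild type 2 were higher and 2 lower (4.706%, against 3.24%). Dact2, a Dishevelled-binding regulator, was at 63.8, 49.1 and 51.4 CPM in wild type, 67.2, 73.4 and 65.0 after saline, and 64.9 and 67.2 after romidepsin. Every Shank3-deficient library exceeded every wild-type one, the lowest by little (64.9 against 63.8 CPM). No overlap was seen in 12.6% of all tested genes between saline and wild type and in 18.4% between romidepsin and wild type. For Dact2, saline was 1.25-fold of wild type (1.08 to 1.45, adjusted p = 0.378 in edgeR). Cdh2, N-cadherin, which binds beta-catenin at synapses, had 131, 129 and 128 CPM in wild type, 147, 153 and 145 after saline, and 126 and 136 after romidepsin. As for Ctnnb1, the 3 saline libraries lay above all others. How many of all tested genes have this pattern was not counted. No overlap was seen in 12.6% of them between saline and wild type and in 20.9% between romidepsin and saline. For Cdh2, saline was 1.15-fold of wild type (1.04 to 1.27, adjusted p = 0.443 in edgeR) and romidepsin 0.884-fold of saline (0.788 to 0.991, adjusted p = 1.00 in edgeR).

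Low-level genes gave the widest ratios. Wnt6 was at 1.26, 0.527 and 0.235 CPM in wild type, 2.75, 1.47 and 1.03 after saline, and 1.97 and 0.823 after romidepsin, with saline 2.77-fold of wild type (1.21 to 6.29, log2 difference 1.47, adjusted p = 0.474 in edgeR). Saline and wild type overlapped, and the log2 difference was 0.91 with saline replicate 1 left out and 2.24 with wild-type replicate 1 left out. Wnt3 was at 1.18, 2.41 and 1.57 CPM in wild type, 1.24, 0.838 and 2.18 after saline, and 0.591 and 0.617 after romidepsin, the lowest of the 8. Romidepsin was 0.353-fold of wild type (0.158 to 0.788, adjusted p = 0.999 in edgeR) and 0.444-fold of saline (0.192 to 1.03). Bambi, a Wnt target that encodes a decoy receptor of the TGF-beta family, gave 2.95, 2.79 and 3.92 CPM in wild type, 3.28, 3.88 and 2.82 after saline, and 1.28 and 2.26 after romidepsin. The romidepsin libraries were below all others, at 0.531-fold of saline (0.320 to 0.881, adjusted p = 1.00 in edgeR). Of 13 listed Wnt target genes 10 were tested, with 0 at an unadjusted p under 0.05 between saline and wild type and 1 lower, Bambi, in each of the other comparisons. Those other comparisons use the same romidepsin libraries. Over all tested genes 8.39% reached that p between saline and wild type. Lower at that p were 1.53% between romidepsin and saline and 1.78% between romidepsin and wild type.

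The deacetylase genes Hdac1 and Hdac2, whose products romidepsin inhibits, did not pass the test in any comparison. Hdac2 measured 76.3, 74.5 and 62.7 CPM in wild type, 74.2, 76.8 and 69.5 after saline, and 78.5 and 74.2 after romidepsin. Saline lay at 1.03-fold of wild type (0.909 to 1.18, adjusted p = 0.914 in edgeR), with overlapping libraries. Hdac1 measured 23.4, 24.1 and 24.2 CPM in wild type, 25.2, 22.5 and 24.2 after saline, and 23.6 and 19.7 after romidepsin. Its romidepsin level was 0.902-fold of saline (0.755 to 1.08, adjusted p = 1.00 in edgeR).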

How the data were processed

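RNA-seq libraries of 8 prefrontal cortex samples were analysed. Per the submitters' processing notes, the authors used bcl2fastq 2.17.1.14, TopHat2 2.1.1 and HTSeq 0.6.1 with the mouse build mm10 (GRCm38). The deposited values are whole-number counts per gene symbol. For the annotation and the strand setting, the sources used here give nothing, and genes that overlap on opposite strands may share or lose reads. In 7 tables HTSeq's 5 summary entries were left out of library sizes: 32.4% to 35.3% of alignments were on genes, 48.0% to 49.3% on no feature and 15.5% to 18.1% not unique. The first saline table lacks these entries and 1 gene, which had at most 1 read elsewhere.

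Genes common to all libraries (24420) were filtered with edgeR 4.0.16 (filterByExpr; 14809 kept, 9611 removed), scaled by TMM and fitted with robust quasi-likelihood models over the 3 groups, with Benjamini-Hochberg adjustment (R 4.3.3). DESeq2 1.42.0 and limma 3.58.1 were alternatives, along with other scaling and filters, a replicate block, the 2 groups compared alone, and each library left out in turn. The spread over all genes was a biological coefficient of variation of 9.33%. CPM were computed with TMM factors, and RPKM with GENCODE M21 exon lengths. Unadjusted p-values and folds are from the same fit. The code was tested on simulated data. Depth limits the rarest members, 10 of which had under 50 reads in some library.

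The members and gene lists were chosen with earlier results of these data known. All members could be named. Values of every library are given for Ctnnb1, the 6 feedback genes, and the members with the smallest p-values. From the other lists, the 3 genes with the smallest p-values per comparison, Hdac1 and Hdac2 are given. The upstream sequences are from RefSeq tables, in which 28 members had an entry.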

Additional observations from a re-analysis of the deposited data

How the results depend on the processing

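Calls of 0 at an adjusted p of 0.05 held for the 45 members and for the 85 further pathway genes in every comparison under all 15 alternatives. The smallest adjusted p of any member over the alternatives was 0.294 between saline and wild type, 0.953 between romidepsin and saline and 0.667 between romidepsin and wild type. The labels do not say that replicate numbers pair the libraries. The correlation of same-numbered deviations from the group mean ran from -0.175 to 0.103, and that of differently numbered ones from -0.156 to 0.236. Deviations within a group of so few libraries sum to 0, so these values cannot decide whether libraries were paired. The replicate block gave 0 calls, as did the main fit. Some log2 differences changed sign. Without romidepsin replicate 1, Lef1 fell from 0.42 in the main fit to -0.0597 between romidepsin and saline. Between romidepsin and wild type it fell from 0.18 to -0.30. Under the replicate block, between romidepsin and saline, Nkd1 was at 0.00425, Znrf3 at 0.0392 and Hdac2 at -0.00702, and between romidepsin and wild type Lef1 was at -0.000874. Leaving out 1 library, saline against wild type, gave Nkd1 from -0.21 to 0.11, Znrf3 from -0.14 to 0.0259, Hdac1 from -0.0347 to 0.0493, Hdac2 from -0.0398 to 0.10. Leaving out 1 library, romidepsin against saline, gave Lef1 from -0.0597 to 0.83, Nkd1 from -0.22 to 0.11, Tcf7 from -0.0117 to 0.72, Znrf3 from -0.13 to 0.0972. Leaving out 1 library, romidepsin against wild type, gave Lef1 from -0.30 to 0.54, Nkd1 from -0.31 to 0.0598, Znrf3 from -0.21 to 0.0187. The cause was not tested. Counts at an unadjusted p under 0.05, and of receptor and feedback estimates by sign, were added to the alternatives after seeing the data. The first count was 1 member in DESeq2 between saline and wild type and 2 between romidepsin and wild type, and between romidepsin and saline it was 1 with limma-voom, RLE size factors, no filter on low counts or the replicate block. Saline against wild type alone gave 1, and romidepsin against saline alone gave 2. With 2 romidepsin libraries, leaving out 1 assumes that the other varies like the rest. Depth limits the rare TCF/LEF factors and receptors.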
